A study of Mus musculus with 8 samples.

Results

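The genes described here are 10 neighbours of Ripk3 on mouse chromosome 14, out of 29955 gene names with values. They were chosen as genes within 10 Mb of Ripk3 that either differed between WT and Ripk3-/- cells in these same libraries (Mtmr9, Slc7a8, Psmb5 and Arl11, 4 genes) or lie close to Ripk3 (Irf9, Tinf2, Adcy4, Nfatc4, Nynrin and Khnyn, 6 genes). The difference between genotypes in LSK and LK cells therefore chose the first 4 genes, and it is given for all 10 as a description, with no test. A targeted gene is inherited together with the DNA that flanks it. When a mutation is made in embryonic stem cells of one mouse strain and bred into another, a stretch of the first strain's chromosome around the mutation can remain, and genes on it can carry other alleles than those of the control mice. The strain of the stem cells behind this allele is not given in the sources used here, and the values hold no sequence variants, so whether such a stretch is present was not tested.

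The study measured RNA by sequencing in bone marrow cells sorted as LSK and LK. LSK cells (lineage-negative, Sca1+, Kit+) hold stem and multipotent progenitor cells. LK cells (lineage-negative, Sca1-negative, Kit+) hold the more advanced myeloid progenitors. The study's design addresses the role of Ripk3, a kinase that drives the inflammatory form of cell death called necroptosis. LSK and LK cells were each taken from WT and from Ripk3-/- mice, which makes 4 groups of 2 libraries, from mice whose strain the labels spell CD57BL6/J (C57BL/6J in the study's methods, with control mice bought from a supplier). The labels state that the cells received no treatment, while the study's methods describe mice given repeated low doses of X-rays and sampled a month after the last one. Age, the number of mice per library and whether the libraries of a group come from separate mice are not given in the sources used here, so a p-value measures only the spread between these libraries.

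Xist, the RNA that silences an X chromosome in female cells, had a signal of 402 and 413 in WT LSK and 108 and 196 in WT LK, against 0 and 1.27 in Ripk3-/- LSK and 0.380 and 0.373 in Ripk3-/- LK. The Y-linked genes Eif2s3y, Uty and Kdm5d were at 0 in all WT libraries and above 0 in all Ripk3-/- libraries, and Ddx3y was at 0 in all 8. Genotype and the sex of the mice thus differ together and cannot be told apart in any comparison of genotypes. Signal stands for reads per gene relative to the library's total, scaled between libraries by the authors, and is not divided by gene length. A library held 9782166 to 16280811 reads, and 1 read was worth 0.0621 to 0.104 of signal.

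The sort was visible in the values. Ly6a, which encodes Sca1, had a signal of 141 to 237 in the LSK libraries and 0.124 to 4.12 in the LK libraries, and Kit was present in every library. Genes of maturing neutrophils differed by genotype. All 7 of the marker genes with a value (8 were listed) rose in Ripk3-/- LSK and 5 of 7 in Ripk3-/- LK in the limma fit at an adjusted p under 0.05, and none of the 7 was at 0 throughout. Their summed signal was 699 and 764 in WT LSK, 2324 and 2753 in Ripk3-/- LSK, 775 and 773 in WT LK, and 1677 and 1675 in Ripk3-/- LK, with S100a8 the most abundant. Retnlg lost its LSK call without any 1 of the 4 LSK libraries (6 of 7 called), and in LK the count was 3 without the first WT or either Ripk3-/- library and 4 without the second WT library. With no trend in the prior variance 5 of 7 were called in LSK and 0 in LK, and with no filter 3 in LK.

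Of 9 LSK stem and progenitor markers limma called 1 in LSK, Flt3, and of 7 LK progenitor markers 1, Gata1. In LK limma, edgeR and DESeq2 called 0 of the 9 (1, 1 and 2 at an unadjusted p under 0.05) and 0 of the 7 (4, 4 and 5). Flt3 had a signal of 555 and 473 in WT LSK against 874 and 886 in Ripk3-/- LSK, and Gata1 57.4 and 38.0 against 22.2 and 14.7. Flt3 rose (log2 fold change 0.78, adjusted p = 0.0298 by limma) and Gata1 fell (-1.32, adjusted p = 0.0128) in Ripk3-/- LSK, with libraries of the genotypes that did not overlap. The Flt3 call was lost without either WT LSK library (adjusted p = 0.0724 and 0.165) or either Ripk3-/- LSK library (0.126 and 0.151), and the Gata1 call without the first WT LSK (0.123) or second Ripk3-/- LSK library (0.142). Over the alternatives the adjusted p ran from 0.00356 to 0.209 for Flt3 and from 2.20e-04 to 0.142 for Gata1. The part of these shifts in the values of the chromosome 14 genes was not tested, and fewer cells of a type and less RNA per cell cannot be told apart in bulk libraries.

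Ripk3 itself checks the labels. Its signal was 162 and 168 in WT LSK, 3.38 and 1.08 in Ripk3-/- LSK, 144 and 149.7 in WT LK, and 16.2 and 10.6 in Ripk3-/- LK. Every Ripk3-/- library lay far below every WT library. Ripk3 fell in LSK (log2 fold change -5.78, SE 0.36, adjusted p = 2.39e-09 by limma) and in LK (-3.39, SE 0.36, adjusted p = 1.07e-05), or 74.2-fold and 11-fold by the ratio of means. Fold changes here and below are on the log2(signal + 1) scale, which understates the change of genes with few reads. The LK call was lost when the prior variance had no trend (adjusted p = 0.117). In GENCODE M21 on GRCm38, Ripk3 lies at chr14:55784995-55788865 on the minus strand, and distances are counted from its gene body.

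Mtmr9 encodes a myotubularin-related protein without phosphatase activity of its own, which binds active relatives and alters their turnover of phosphoinositide lipids. It lies 7.73 Mb from Ripk3 at chr14:63519651-63543982, the farthest of the 10 genes. Its signal was 12.7 and 15.5 in WT LSK against 186 and 149 in Ripk3-/- LSK, and 34.8 and 38.0 in WT LK against 83.8 and 103 in Ripk3-/- LK. All Ripk3-/- libraries lay above all WT libraries, and WT LSK was the lowest group. The ratio of means was 11.9-fold in LSK (log2 fold change 3.48, SE 0.26) and 2.56-fold in LK (1.33, SE 0.27), the largest difference in LSK among the 10 genes. The LSK and LK fold changes differed by 2.15 on the log2 scale (SE 0.38), given without a test for the same reason.

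Slc7a8 encodes LAT2, a carrier of neutral amino acids that works as a pair with the heavy chain Slc3a2. The gene lies 1003 kb from Ripk3 at chr14:54722209-54781946. Its signal was 46.9 and 11.5 in WT LSK against 128 and 70.5 in Ripk3-/- LSK, and 12.2 and 25.9 in WT LK against 47.8 and 53.0 in Ripk3-/- LK. The groups did not overlap in either population, but the WT LSK libraries stood 4.08-fold apart. The log2 fold change was 1.98 (SE 0.47) in LSK and 1.45 (SE 0.46) in LK. Without the first WT LSK library the LSK value was 2.94, and without the second 1.01, and the LK value was 0.93 without the first WT LK library.

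Psmb5 encodes the beta5 subunit of the 20S proteasome, the subunit that cuts proteins after hydrophobic residues. It lies 1.17 Mb from Ripk3 at chr14:54614119-54618022, on the same side as Slc7a8. Its signal was 170.2 and 200.5 in WT LSK against 93.6 and 90.1 in Ripk3-/- LSK, and 256 and 201 in WT LK against 89.8 and 108 in Ripk3-/- LK. All Ripk3-/- libraries lay below all WT libraries, at 2.02-fold lower in LSK (log2 fold change -1.0, SE 0.21) and 2.31-fold lower in LK (-1.20, SE 0.20). The Psmb5 transcript shares 98.9% of its bases over 796 positions with Gm3375, a processed pseudogene on chromosome 7, and 92.0% over 810 positions with Psmb5-ps on chromosome 11. The treatment of reads that match such copies is not given in the sources used here, so the level of Psmb5 is uncertain to that extent.

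Arl11 encodes a small GTPase of the ARF-like family that is expressed in macrophages and other blood cells. It is a gene of 1 exon, 5.52 Mb from Ripk3 at chr14:61309753-61311936. Its signal was 30.2 and 25.1 in WT LSK against 18.7 and 11.3 in Ripk3-/- LSK, and 46.5 and 41.9 in WT LK against 19.0 and 14.6 in Ripk3-/- LK. The groups did not overlap, with the Ripk3-/- libraries lower in both populations (log2 fold change -0.87, SE 0.36 in LSK and -1.36, SE 0.37 in LK). Without the second Ripk3-/- LSK library the LSK value was -0.53. The gene 1700109G14Rik runs across Arl11 on the other strand. The library kit keeps strand, but whether the counting used it is not given in the sources used here, so reads from the 2 genes cannot be told apart.

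**Figure D1:**
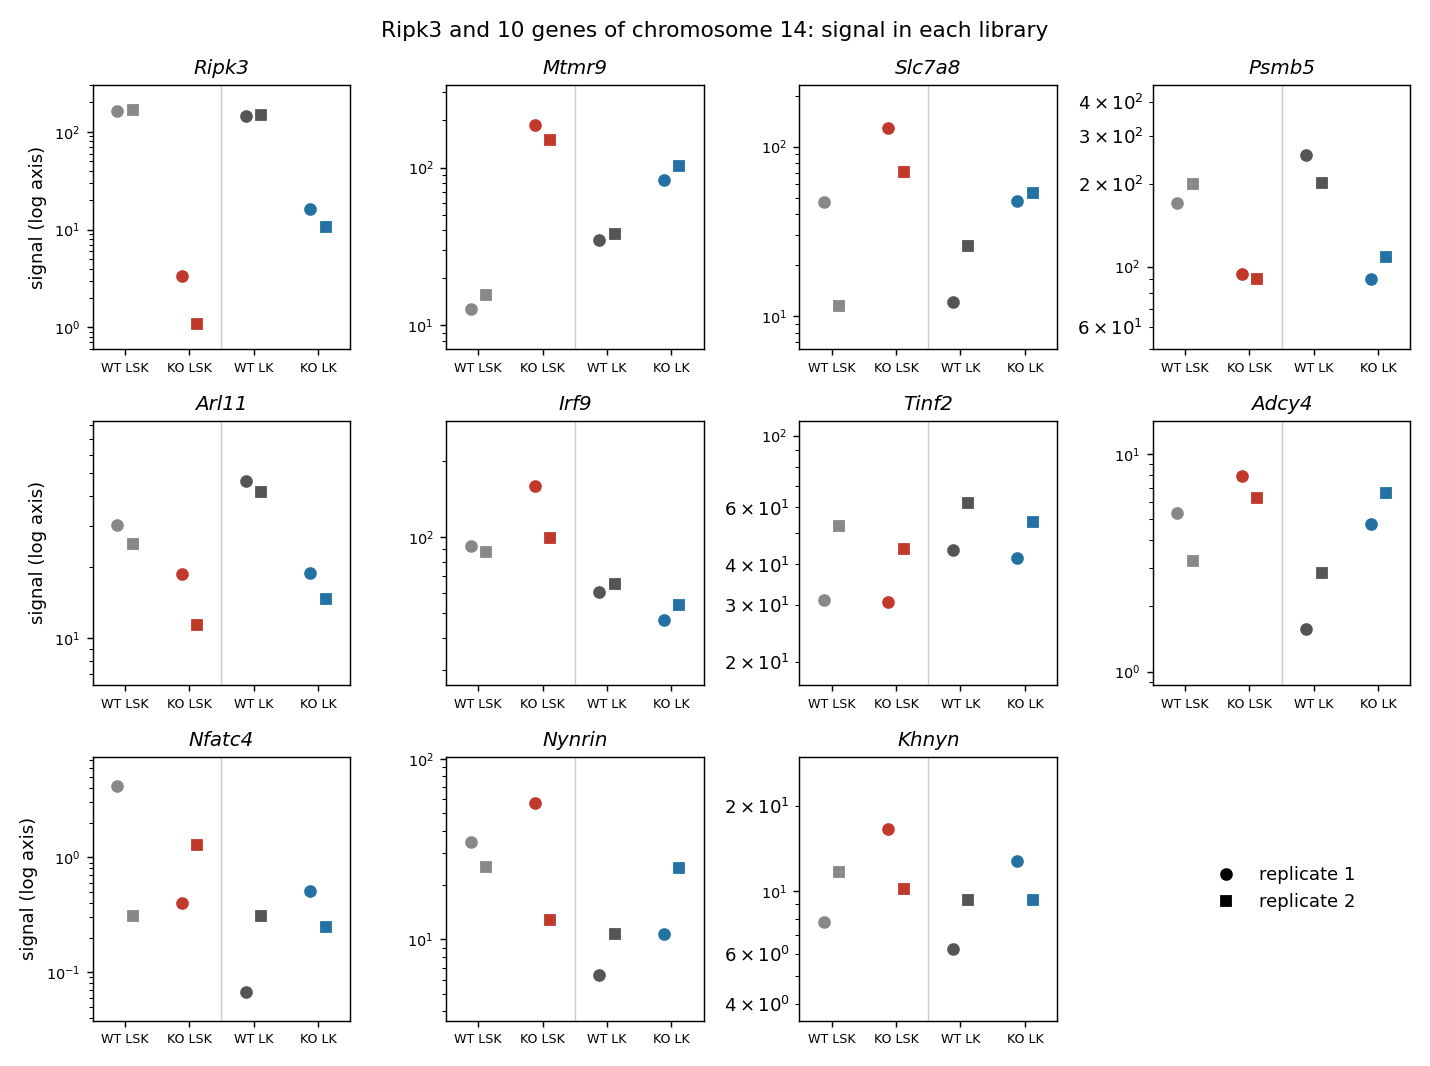
Signal of Ripk3 and the 10 neighbouring genes in each of the 8 libraries, 1 panel per gene with a log axis of its own; circles are replicate 1, squares replicate 2, and KO stands for Ripk3-/-. Mtmr9 and Slc7a8 lie higher and Psmb5 and Arl11 lower in all Ripk3-/- libraries than in the WT libraries of the same population.

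Over all genes, an adjusted p under 0.05 by limma was reached by 2.16% of 16817 tested genes in LSK (0.892% higher and 1.27% lower in Ripk3-/- libraries, 1.55% with at least a 2-fold difference). In LK it was reached by 0.473% of 13949 (0.1% higher, 0.373% lower, 0.409% at least 2-fold), and in both populations by 0.233% of 13746. The 4 genes are not set against these shares, because the same contrast chose them.

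Promoter sequence is shown for the 3 chosen genes that have an entry and for Adcy4, whose promoter is the one nearest to the disrupted gene. RefSeq promoters on GRCm38.p6 matched 9 of the 10 genes. The 190 bases from 250 to 61 bases before each start are printed 5′ to 3′ on the gene's own strand, upstream of its annotated exons, with any of 6 searched motifs in capitals. The motifs were searched on both strands, and a share of the same stretches of 32851 promoters holds each: the CCAAT box 26.7%, the GC box GGGCGG of Sp1-type factors 22.8%, the TATAAA box 8.73%, the ETS site CCGGAAGT 1.22%, the PU.1-type site GAGGAAGT 1.64%, and the interferon-type element of 2 GAAA blocks spaced by 2 bases 2.34%.
Slc7a8, minus strand, chr14:54781947-54782136: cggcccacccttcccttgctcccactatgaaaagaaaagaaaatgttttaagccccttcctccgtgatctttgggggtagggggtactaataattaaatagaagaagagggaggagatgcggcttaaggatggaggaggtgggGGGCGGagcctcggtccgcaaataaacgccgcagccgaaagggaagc
Psmb5, minus strand, chr14:54618056-54618245: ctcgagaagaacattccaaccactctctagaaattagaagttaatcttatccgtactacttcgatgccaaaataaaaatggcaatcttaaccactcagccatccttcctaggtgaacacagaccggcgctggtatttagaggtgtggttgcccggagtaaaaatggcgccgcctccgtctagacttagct
Arl11, plus strand, chr14:61309503-61309692: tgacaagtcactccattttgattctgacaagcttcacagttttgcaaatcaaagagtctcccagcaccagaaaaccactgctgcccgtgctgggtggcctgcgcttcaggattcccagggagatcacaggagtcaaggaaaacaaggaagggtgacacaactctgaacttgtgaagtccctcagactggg
Adcy4, minus strand, chr14:55784133-55784322: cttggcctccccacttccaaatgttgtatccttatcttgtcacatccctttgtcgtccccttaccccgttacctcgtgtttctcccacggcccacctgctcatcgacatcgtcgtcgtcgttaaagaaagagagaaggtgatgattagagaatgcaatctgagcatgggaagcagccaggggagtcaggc
GGGCGG occurred in the Slc7a8 stretch, from 107 to 102 bases before the start, and the other 3 stretches held none of the 6 motifs. The Psmb5, Slc7a8 and Adcy4 stretches had 9 CG pairs each and Arl11 had 2, against a median of 4 over all promoters. The Arl11 stretch lies within an intron of 1700109G14Rik. Matches are descriptions of the reference sequence, not of the alleles of these mice.

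The 6 genes listed as adjacent lie within 175 kb of Ripk3, where other genes lie as well. Adcy4, a membrane adenylyl cyclase that makes cyclic AMP, starts 0.9 kb from the end of Ripk3 and is transcribed in the same direction. Its signal was 5.36 and 3.21 in WT LSK against 7.88 and 6.26 in Ripk3-/- LSK, and 1.56 and 2.82 in WT LK against 4.76 and 6.58 in Ripk3-/- LK. The Ripk3-/- libraries were the higher ones in both populations, at levels of 23 to 106 reads (log2 fold change 0.63, SE 0.59 in LSK and 1.08, SE 0.59 in LK). Without the second WT LSK library the LSK value was 0.34. Nfatc4, a calcium-regulated transcription factor 34.3 kb away, was near the limit of detection. Its signal was 4.17 and 0.311 in WT LSK against 0.402 and 1.27 in Ripk3-/- LSK, and 0.0679 to 0.507 over the LK libraries. Its groups overlapped, 1 WT LSK library with 42 reads stood above the rest, and its mean in LK was under the signal of 1 required for a fit.

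Nynrin and Khnyn are neighbours that encode related proteins with an NYN-type nuclease domain, and Khnyn works with the antiviral factor ZAP. Nynrin, 65.1 kb from Ripk3, had a signal of 34.7 and 25.2 in WT LSK against 57.1 and 12.8 in Ripk3-/- LSK, and 6.39 and 10.76 in WT LK against 10.78 and 24.8 in Ripk3-/- LK. Its LSK groups overlapped, with both extremes in Ripk3-/- libraries, and its LK groups all but touched. Khnyn, 96.1 kb away, had a signal of 7.75 and 11.7 in WT LSK against 16.6 and 10.2 in Ripk3-/- LSK, and 6.25 and 9.312 in WT LK against 12.8 and 9.314 in Ripk3-/- LK. Again the LSK groups overlapped and the LK groups met. Log2 fold changes were -0.11 (SE 0.54) and 0.90 (SE 0.54) for Nynrin and 0.41 (SE 0.50) and 0.46 (SE 0.50) for Khnyn, in LSK and LK. They rest on single libraries. Without the first or second WT and the first or second Ripk3-/- library of the population, Nynrin was at 0.11, -0.33, -1.15 and 0.93 in LSK and Khnyn at 0.14, 0.68, 0.08 and 0.74. In LK, Nynrin was at 0.57 without the first WT library and 1.47 and 0.34 without the first or second Ripk3-/- library, and Khnyn at 0.21 and 0.72 without the first or second WT library and 0.25 without the first Ripk3-/- library.

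Irf9 is the DNA-binding subunit of ISGF3, the complex that switches on interferon-stimulated genes, and lies 175 kb from Ripk3. Its signal was 92.1 and 87.0 in WT LSK against 159.6 and 99.1 in Ripk3-/- LSK, and 60.9 and 65.3 in WT LK against 47.0 and 53.8 in Ripk3-/- LK. Ripk3-/- libraries were the higher ones in LSK and the lower ones in LK (log2 fold change 0.49, SE 0.25 and -0.32, SE 0.25), with 1 Ripk3-/- LSK library far above the other. The LSK value was 0.14 without the first Ripk3-/- LSK library and 0.83 without the second. Tinf2 encodes TIN2, the shelterin subunit that ties the telomere-binding proteins together, and lies 103 kb from Ripk3. Its signal was 31.0 and 52.5 in WT LSK against 30.5 and 44.7 in Ripk3-/- LSK, and 44.2 and 61.7 in WT LK against 41.9 and 54.2 in Ripk3-/- LK. The groups overlapped in both populations, with fold changes close to 0 (-0.12 and -0.13, SE 0.32 each). Without the first or second WT and the first or second Ripk3-/- library they were -0.50, 0.25, 0.14 and -0.39 in LSK and -0.37, 0.11, 0.05 and -0.31 in LK. Irf9, Tinf2, Nynrin and Khnyn overlap other genes (Rnf31 on the same strand, and Gmpr2, Gm26751 and Sdr39u1 on the other), so that some of their reads may belong to those.

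Over the 10 genes, the libraries of the 2 genotypes did not overlap for 6 of 10 in LSK (44.6% of all tested genes), 4 with Ripk3-/- higher (21.4%) and 2 lower (23.2%), and for 8 of 9 in LK (40.0%), 5 higher (20.1%) and 3 lower (19.9%). The contrast chose 4 of these genes, and the counts are not read further. The LSK and LK values come from different libraries, with a spread estimated over all 8.

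**Figure D2:**
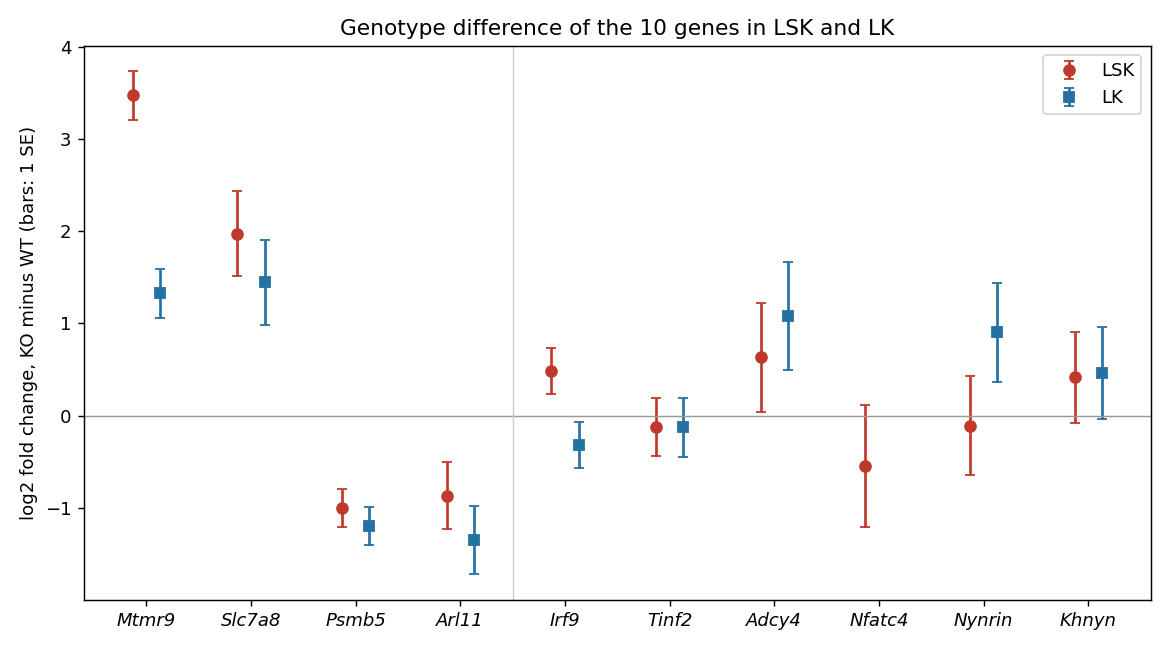
Log2 fold change (Ripk3-/- minus WT) of the 10 genes, circles for LSK and squares for LK, with bars of 1 SE; the 4 genes left of the line were chosen on this difference, and Nfatc4 has no LK value. Mtmr9 stands highest in LSK at 3.48, and the bars of Irf9 lie on opposite sides of 0.

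The genes around Ripk3 were then taken by position, without regard to their values. Of the gene names, 326 lie within 10 Mb of Ripk3, Ripk3 left out, covering 280 of the 301 annotated protein-coding genes there, and 192 were tested in LSK and 165 in LK. In LSK, 5 had an adjusted p under 0.05 by limma (2.60%, against 2.16% of all tested genes), a count that holds 3 of the 10 genes above by their choice. The LSK count was 3 without the second WT LSK, 2 without the first Ripk3-/- LSK and 3 without the second Ripk3-/- LSK library. Without the 10, limma and edgeR called 2 of 182 in LSK and DESeq2 4, and all 3 called 0 of 156 in LK. At an unadjusted p under 0.05, limma counted 32 of the 182 (3011 of 16817 over all genes), and in LK limma counted 9 of the 156 (915 of 13949 over all genes), edgeR 8 and DESeq2 12. The median log2 fold change in the window was 0.03 in LSK and -0.10 in LK, against -0.01 and 0.01 over all tested genes.

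The 2 other genes that passed were Cma1 and Apex1. Cma1, a chymase of mast cells that lies 153 kb from Ripk3, had a signal of 10.4 and 10.9 in WT LSK against 0.0804 (1 read) and 0 in Ripk3-/- LSK, and 3.40, 2.67, 1.27 and 2.79 in the LK libraries (WT, then Ripk3-/-). It was nearly absent from both Ripk3-/- LSK libraries and low in all of LK. It fell in LSK (log2 fold change -3.49 with a pseudocount of 1, adjusted p = 0.00255 by limma), and passed under all 18 alternative settings, with adjusted p from 1.71e-04 to 0.0470. In LK it did not pass (-0.45, adjusted p = 0.950). The difference between the populations did not pass either (adjusted p = 0.206). Mast cell content was not tested.

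Apex1, the main endonuclease that repairs abasic sites in DNA, lies 4.86 Mb away. Its signal was 21.1 and 24.2 in WT LSK against 67.3 and 61.9 in Ripk3-/- LSK, and 25.8, 22.7, 20.8 and 25.2 in the LK libraries in the same order. Only the Ripk3-/- LSK libraries stood out. Apex1 rose in LSK (log2 fold change 1.47, SE 0.32, adjusted p = 0.0145 by limma), with both Ripk3-/- libraries above both WT libraries. The call was lost without any 1 of the 4 LSK libraries, at an adjusted p of 0.0760 and 0.0655 without the first or second WT library and 0.105 and 0.0879 without the first or second Ripk3-/- library, and over all settings the adjusted p ran from 2.91e-04 to 0.105. In LK it did not pass (-0.08, adjusted p = 0.983), and the difference between populations did not pass (adjusted p = 0.210).

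The window was also divided by distance from Ripk3, with the 10 genes included. In LSK, 1 of 53 tested genes under 1 Mb had an adjusted p under 0.05 by limma, and 2 of 29 from 1 to 2 Mb. Farther out it was 1 of 48 from 2 to 5 Mb, 1 of 62 from 5 to 10 Mb and 5 of 328 beyond that on chromosome 14. Of all tested genes 2.16% passed. The 2 from 1 to 2 Mb were Slc7a8 and Psmb5, and the 1 from 5 to 10 Mb was Mtmr9. All of these were chosen on this contrast, so their bins are not set against that share. In LK the count over the window was 2 of 165 (1.21%, against 0.473% of all tested genes). Both were genes chosen on that contrast, so the count is not read further. The median log2 fold change from the nearest to the farthest of these bins was -0.03, -0.12, 0.18 and 0.09 in LSK. In LK it was -0.21 over 45 genes under 1 Mb, -0.21 over 27 genes from 1 to 2 Mb, 0.00 over 42 genes from 2 to 5 Mb and 0.01 over 51 genes from 5 to 10 Mb. Tested genes right beside Ripk3 were Ltb4r1, 2610027L16Rik, Dhrs1 and Rabggta on the side of Adcy4, and Sdr39u1 and Cma1 past Khnyn. Of these, Cma1 alone passed, in LSK. At the edges of the window, Bmp4 (9.39 Mb) and Scara5 (9.88 Mb) were the last tested genes inside, with LSK log2 fold changes of -0.44 and -0.30, and Ddhd1 (10.13 Mb) and Pbk (10.02 Mb) the first outside, with -0.08 and 0.02.

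**Figure D3:**
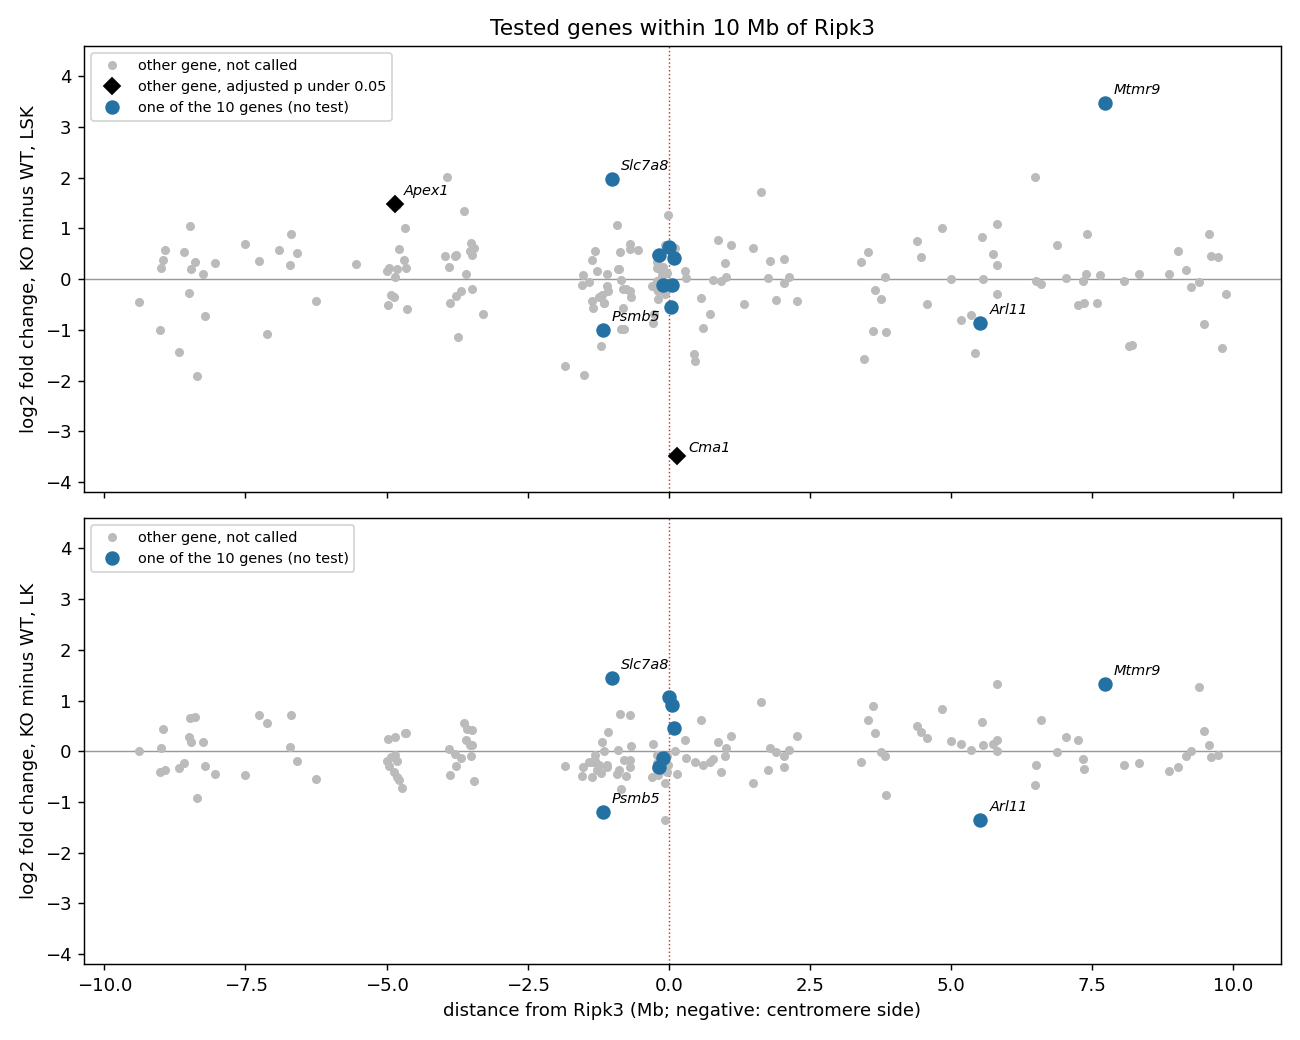
Log2 fold change (Ripk3-/- minus WT) of every tested gene within 10 Mb of Ripk3 against its distance from Ripk3, in LSK (top) and LK (bottom); blue points are the 10 genes, black diamonds other genes with an adjusted p under 0.05, grey points the rest. The values next to Ripk3 lie on both sides of 0 in LSK, and Mtmr9 lies 7.73 Mb away with the highest LSK value.

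The difference between LSK and LK, averaged over genotypes, took no part in the choice of the genes and was tested on reads scaled over all 8 libraries together (CPM, read counts relative to the scaled library total). Of 9 tested genes, 5 passed an adjusted p under 0.05, 4 lower and 1 higher in LSK, where 34.0% of 15757 genes passed, 20.2% lower and 13.7% higher. Psmb5 was lower in LSK than in LK (log2 difference -0.57, SE 0.15, adjusted p = 0.00482 by limma), with libraries that overlapped, as was Tinf2 (-0.72, SE 0.22, adjusted p = 0.0158). For Tinf2 all 4 LSK libraries, at 27.1 to 46.1 CPM, lay below all 4 LK libraries, at 47.6 to 69.7 CPM. Irf9 was higher in LSK (0.54, SE 0.18, adjusted p = 0.0244), with 76.4 to 141 CPM in LSK against 53.4 to 73.6 CPM in LK and no overlap. Arl11 (-0.77, adjusted p = 0.0252) and Mtmr9 (-0.60, adjusted p = 0.0180) were lower in LSK with libraries that overlapped.

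For several genes the average hides unequal values. The log2 difference of Mtmr9 was -1.66 (SE 0.27) in WT libraries alone and 0.47 (SE 0.27) in Ripk3-/- libraries alone, given without a test because these values chose the gene. For Irf9 the difference was 0.13 (SE 0.25) in WT libraries alone and 0.94 (SE 0.25) in Ripk3-/- libraries alone, so that the average rests mostly on the latter. Arl11 stood at -1.02 (SE 0.37) and -0.53 (SE 0.37), and Nynrin at 1.37 (SE 0.54) and 0.35 (SE 0.54), in the same order. These splits were made after seeing the data. Slc7a8 (0.28), Adcy4 (0.21), Nynrin (0.86) and Khnyn (-0.08) did not pass, with adjusted p of 0.515, 0.731, 0.0847 and 0.882, which does not show that their levels are equal. Nfatc4 was too low to test.

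Several of these calls rested on 1 library or on the scaling. The Irf9 call was lost without the first WT LSK, first Ripk3-/- LSK, first WT LK or first Ripk3-/- LK library (adjusted p = 0.0592, 0.131, 0.0741 and 0.0857). The Tinf2 call was lost without the first WT LSK, first Ripk3-/- LSK, second WT LK or second Ripk3-/- LK library (adjusted p = 0.0823, 0.0576, 0.0812 and 0.0917). The Arl11 call was lost without the second WT LSK, second Ripk3-/- LSK, either WT LK or the first Ripk3-/- LK library (adjusted p = 0.0755, 0.116, 0.0927, 0.0528 and 0.0929), and the Mtmr9 call without the second Ripk3-/- LSK, second WT LK or second Ripk3-/- LK library (adjusted p = 0.0992, 0.0535 and 0.109). Psmb5 kept its call whichever library was left out. With no filter Irf9 and Tinf2 did not pass (adjusted p = 0.0627 and 0.0605). With no trend in the prior variance Psmb5, Irf9, Tinf2 and Mtmr9 did not pass (adjusted p = 0.0681, 0.108, 0.0825 and 0.0604), and with libraries centred on their median Irf9 did not (0.0935). Slc7a8 passed without the second WT LSK library (0.78, adjusted p = 0.0451) but stood at -0.20 without the first, and Nynrin stood at 0.34 without the first Ripk3-/- LSK and 0.57 without the first Ripk3-/- LK library. Nynrin passed without the second Ripk3-/- LSK library (adjusted p = 0.00351), with DESeq2 (0.0373) and with the scaling within each population (0.0185). With the authors' scaling within each population, which places the median of all genes at 0.39 in place of 0.07, Psmb5, Tinf2, Arl11 and Mtmr9 did not pass, so that 2 of the genes were higher and 0 lower in LSK, and relative to that median these 4 stood at -0.59, -0.75, -0.81 and -0.63.

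Levels can be set beside each other per length of transcript, as CPM per kb. In WT LSK, Psmb5 stood at 181 ± 20.9 CPM per kb (SD, n = 2), Irf9 at 32.0 ± 1.27, Tinf2 at 12.4 ± 4.52, Arl11 at 11.6 ± 1.52, Slc7a8 at 6.27 ± 5.38 and Mtmr9 at 4.82 ± 0.683. The remaining 4 genes lay from 3.496 (Nynrin) through 2.19 (Khnyn) and 1.07 (Adcy4) to 0.602 (Nfatc4) CPM per kb. From Tinf2 downwards, genes next to each other in this order had overlapping ranges of mean ± SD, except Khnyn and Adcy4. The order within these overlaps is not resolved. In Ripk3-/- LSK the level of Mtmr9 was 57.4 ± 9.28 CPM per kb, between Psmb5 (89.97 ± 3.28) and Irf9 (46.4 ± 15.7), with the last within its spread.

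**Figure D4:**
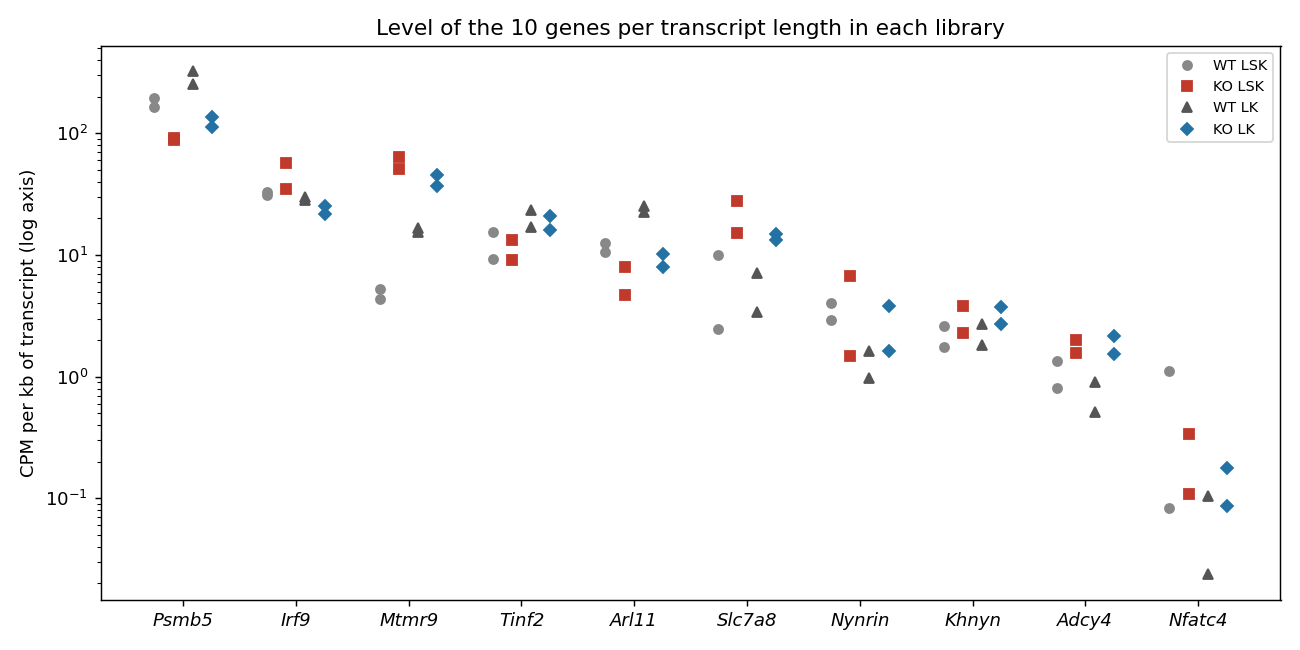
Level of the 10 genes in each library as CPM per kb of transcript, on a log axis, with genes ordered by their mean over the 8 libraries and a marker shape for each group. Psmb5 is the highest and Nfatc4 the lowest. Mtmr9 and Nfatc4 spread most widely between groups, the latter on 1 to 42 reads per library.

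Partners of the members were counted from lists made for each member's role. Of the 13 other genes of the 20S proteasome core, 2 fell in Ripk3-/- LSK, where 1.27% of all tested genes did. They were Psma3 (log2 fold change -0.59, adjusted p = 0.0490 by limma) and Psmb3 (-0.67, adjusted p = 0.0459). Their signals were 473 and 496 against 309 and 336 for Psma3, and 229.9 and 261 against 158 and 148 for Psmb3. Within LSK, both Ripk3-/- libraries lay below both WT libraries for each gene. Neither call held without any 1 of the 8 libraries, at adjusted p of 0.0718 to 0.173 for Psma3 and 0.0707 to 0.177 for Psmb3, and edgeR made neither (0.0877 and 0.0803). Both were also lost with a pseudocount of 0.1, no filter, TMM over all libraries, no trend, the LSK libraries alone and a replicate block, and DESeq2 called both, and Psma5. In LK limma, edgeR and DESeq2 called 0 of 13, with 1 at an unadjusted p under 0.05 in each. The list's median log2 fold change was -0.09 in LSK and -0.19 in LK. Between populations, 10 of the 13 were lower in LSK, where 20.2% of all tested genes were. Their median was -0.52 against 0.07 over all genes. With the scaling within each population 3 of 13 were lower, and with libraries centred on their median 13 of 13. Psmb5 was on the same side.

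Of 19 genes of ISGF3 and the interferon response, limma, edgeR and DESeq2 called 0 in LSK, with 1, 0 and 1 at an unadjusted p under 0.05. In LK, 1 of 18 fell, where 0.373% of all tested genes did. It was Irf1 (log2 fold change -0.74, adjusted p = 0.0450 by limma), a factor of interferon signalling. Its signals were 268 and 280.4 in WT against 163 and 166 in Ripk3-/- libraries. The call was lost without either WT LSK library (adjusted p = 0.0655 and 0.0657), either WT LK library (0.369 and 0.196) or either Ripk3-/- LK library (0.539 and 0.252), and with edgeR (0.0833). It was also lost with a pseudocount of 0.1 (0.0574), no filter (0.277), TMM over all libraries (0.0536), no trend (0.648) and a replicate block (0.0711). Between populations 10 of the 19 were higher and 1 lower in LSK, where 13.7% and 20.2% of all tested genes were. Their median was 0.65 against 0.07 over all genes. With libraries centred on their median 9 were higher and 1 lower. With the scaling within each population 13 of 19 were higher and 1 lower, and the median of all genes was 0.39. Irf9 was on the same side as most of the called genes.

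In the remaining 8 lists, limma called no gene between genotypes in either population, nor did edgeR. These were the immunoproteasome and PA28 (6 genes), shelterin (6), calcineurin and NFAT (9), adenylyl cyclases (10), amino acid transporters (8), myotubularins (13), ARF-like GTPases (16) and the ZAP and KHNYN axis (4). DESeq2 called Adcy3 lower and Sbf1 higher in LSK and Gnas lower in LK. At an unadjusted p under 0.05, limma and edgeR counted 0 to 2 genes in each list. In LK limma also called Gnas without the second WT LK library, with libraries centred on their median and with the LK libraries alone. The median log2 fold changes of the 8 lists ran from -0.44 (adenylyl cyclases) to 0.56 (shelterin) in LSK and from -0.25 (immunoproteasome and PA28) to 0.24 (myotubularins) in LK. Between populations, 4 of 10 tested myotubularins and 3 of 8 amino acid transporters were lower in LSK, and 1 of 6 shelterin genes, where 20.2% of all genes were. With the scaling within each population 2 myotubularins and 2 amino acid transporters were higher, 1 of each lower, and no shelterin gene was called. In the other 5 lists limma called 2 higher and 1 lower of 15 ARF-like GTPases. Of 9 calcineurin and NFAT genes it called 2 higher and 1 lower. It called 1 higher of 9 adenylyl cyclases and 1 higher of 4 genes of the ZAP axis. Of 6 immunoproteasome and PA28 genes it called 1 higher and 1 lower. Over all genes 13.7% were higher in LSK. With the scaling within each population, ARF-like GTPases had 5 higher and 1 lower, and calcineurin and NFAT genes 4 higher and 0 lower. Adenylyl cyclases then had 3 higher and the ZAP axis 2, with 0 lower in each. The immunoproteasome and PA28 list had 4 higher and 1 lower. That scaling called more genes higher than lower in LSK over all genes.

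Other genes had patterns close to those of the chosen 4. Likeness was the mean absolute difference of log2(signal + 1) over the 8 libraries, with each population centred on its own mean, among 10796 candidate genes. Closest to Mtmr9 were Rabac1 on chromosome 7 (0.27) and Lhfpl2 on chromosome 13 (0.30), and closest to Slc7a8 were mKIAA4190 (0.24) and AK088368 (0.30), names that could not be placed on the genome. Closest to Psmb5 were Bbc3 on chromosome 7 (0.10) and Socs3 on chromosome 11 (0.11), and closest to Arl11 were Lmna on chromosome 3 (0.09) and N4bp3 on chromosome 11 (0.17). The measure uses the genotype pattern that chose the 4 genes, and the LSK groups of N4bp3 overlap. Rabac1, a protein of vesicle transport, had a signal of 2.98 and 3.63 in WT LSK against 36.4 and 32.7 in Ripk3-/- LSK, and Lmna, the gene of the nuclear lamins A and C, had 52.1 and 36.9 against 29.3 and 17.02.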

How the data were processed

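RNA of 8 libraries was measured by sequencing, 2 for each genotype (WT, Ripk3-/-) in LSK and in LK cells. Per the submitters' notes, reads were aligned with TopHat to mm9; the counting tool and its annotation are not given in the sources used here. The values are signal values per gene deposited by the authors. The file header says FPKM, but in each library all values (100%) are whole multiples of a single step within 0.01, as for read counts divided by library totals with TMM scaling within each population, so they are called signal and whole reads were recovered. The design had assumed FPKM, and its test was kept on signal.

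Genotype was compared in LSK and in LK with limma 3.58.1 (R 4.3.3) on log2(signal + 1), with 4 group means over 8 libraries and a trended prior variance, for genes whose signal averaged 1 or more. P-values were adjusted by Benjamini-Hochberg over all tested genes (16817 in LSK, 13949 in LK), and genes were called at an adjusted p under 0.05. LSK was compared with LK on recovered reads with TMM over all libraries (edgeR 4.0.16). The difference of the genotype effects was tested on signal, as the genotype was. The 10 genes and the partner lists were chosen with earlier results of these data known, so the genotype values of the 10 genes are given without p-values, and counts that include them are descriptions. An exact permutation of 2 against 2 libraries gives no p under 0.333. The fit was also run on simulated counts with 1 fixed spread for all genes, scaled over all 8 libraries together. The genotype tests used signal scaled within each population, so that run does not measure their accuracy, and no result rests on it.

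Genes named are Ripk3 and the 10, window genes called, and the 5 tested genes nearest to Ripk3 on each side. Genes at the window's edges and the uncalled window gene with the smallest adjusted p in each population are named too. So are called genes of the lists and the closest patterns. Positions come from GENCODE M21 on GRCm38, matched by symbol (21411 of 29955 names), and differ from mm9 coordinates. Promoters are RefSeq entries, and near-identical copies were searched with BLAST+ 2.17.0 (at least 90% identity over 200 bases). Pandas 2.3.3, numpy 2.4.6 and matplotlib 3.10.9 (Python 3.11.15) made tables and figures.

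Alternatives were 0.1 as pseudocount, leaving low genes unfiltered or asking for an average of 5, other scalings, no trend, the population's libraries alone, edgeR, DESeq2 1.42.0, a replicate block, each library left out, and windows of 2 and 5 Mb. Libraries of a group correlated at r = 0.922 to 0.965 across genes. Libraries held 9782166 to 16280811 reads, so that 1 read is 0.0621 to 0.104 of signal and values of a few reads are imprecise.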

Additional observations from a re-analysis of the deposited data

Results flagged for a closer look

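Among the 10 genes and the named genes of the window around Ripk3 (genes of the lists were not screened), for 2 every Ripk3-/- LSK library lay above every WT LSK library while every Ripk3-/- LK library lay below every WT LK library. Of all tested genes, 21.4% lay wholly higher in Ripk3-/- LSK and 19.9% wholly lower in Ripk3-/- LK. The share with both was not counted, so the count of 2 is not read further. For Irf9 the log2 fold changes in LSK and LK differ by 0.81 (SE 0.35), and the difference was not tested. Its LSK value falls from 0.49 to 0.14 without the first Ripk3-/- LSK library. For Ltb4r1, a receptor for leukotriene B4 that lies 16.5 kb from Ripk3, the signal was 11.1 and 7.25 in WT LSK against 33.4 and 16.0 in Ripk3-/- LSK, and 110.5 and 114 in WT LK against 78.9 and 109 in Ripk3-/- LK. The log2 fold changes were 1.27 (SE 0.34) in LSK and -0.27 (SE 0.34) in LK. They differ by 1.55 (SE 0.48), given without a test because these values flagged the gene. Without the first Ripk3-/- LSK library the LSK value was 0.77, and the LK value was -0.04 without the first and -0.50 without the second Ripk3-/- LK library. Over the 18 alternatives the LSK value ran from 0.77 to 1.78.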

How the results depend on the processing

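Of 19 pairs of gene and population, 16 kept the sign of their genotype value under all alternatives run, and Nynrin in LSK and Tinf2 in LSK and LK did not. The genotypes did not overlap for 6 of 10 genes in LSK and 8 of 9 in LK. For those, leaving a library out cannot change the sign. The count also holds the 4 genes chosen on this difference, so it does not measure how stable the values are. The genotype count of 363 genes in LSK was 198 with no filter, 120 with no trend, 195 with only the population's libraries, 209 with edgeR, 652 with DESeq2 and 99 to 262 with a library left out. The count of 66 in LK was 9 with no filter, 3 with no trend, 125 with only the population's libraries, 170 with DESeq2 and 13 to 101 with a library left out. The count of 57 for the difference of genotype effects was 3 with no filter, 2 with no trend, 169 with DESeq2 and 17 to 90 with a library left out. In the window, 5 genes in LSK became 2 with no trend, 3 within 2 Mb and 2 to 5 with a library left out, and 2 genes in LK became 0 with no filter, 0 with no trend, 4 with only the population's libraries, 1 within 2 Mb, 1 within 5 Mb and 0 to 2 with a library left out. Narrower windows hold fewer genes; for the other settings the cause was not tested. A group left with 1 library is assumed to vary like the others. The count of 5351 between populations stayed within 1.5 times under all alternatives (3784 to 5247 with a library left out), but its split of 2164 higher and 3187 lower was 3890 and 1473 scaled within each population. The Mtmr9 difference between populations reversed to 0.47 in Ripk3-/- libraries alone, an alternative chosen after seeing the data; the cause was not tested. With the replicate number as a block the counts were 317, 64, 5157, 53, 5 and 2. Centring libraries on their median moved the median LSK genotype value from -0.01 to -0.12. Depth limits Nfatc4 most, at 1 to 42 reads per library.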
